A study of Mus musculus with 5 samples.

Results

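Glycolysis turns glucose into pyruvate and lactate, and the pentose phosphate pathway branches from its first intermediate to make NADPH and ribose for nucleotides. The 33 genes described here encode the glucose carriers, the enzymes of each glycolytic step, the lactate carriers, 3 regulatory kinases and the pentose phosphate enzymes. They were chosen by name, with earlier results of these data known, and matched by symbol to the Ensembl identifiers of the count table. All 33 were found among its 55487 genes, 25 of glycolysis and 8 of the pentose phosphate pathway. All 33 also passed the filter on low counts, as did 14423 genes in all.

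The samples were common lymphoid progenitors, sorted from mouse bone marrow as lineage-negative cells with CD127 and Flt3 on their surface. The 3 SF1 libraries (VF in the protocol) came from mice of the genotype SclCre;JAK2-V617F, in which a Cre driven from the Scl gene of blood stem cells goes with the activated kinase of myeloproliferative neoplasms. The 2 WT libraries came from wild-type mice. Marrow of both groups was taken 16 weeks after tamoxifen, which switches on an inducible Cre. The labels do not say whether WT mice carried SclCre, how old the mice were, in what share of cells Cre had acted, or whether a library was 1 animal or a pool. P-values therefore measure the spread between these libraries, which may be technical.

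Progenitors rely on both pathways when they grow. The hexokinase, phosphofructokinase and pyruvate kinase steps are the points where glycolytic flux is controlled. Glucose-6-phosphate dehydrogenase controls entry into the oxidative pentose phosphate branch, which makes NADPH, while the non-oxidative branch (Tkt, Taldo1, Rpia, Rpe) exchanges sugars with glycolysis. Most steps have several isoenzymes encoded by different genes.

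The 3 SF1 libraries held 9350767 to 11290082 counts each, and WT replicates 1 and 2 held 20424296 and 8894288. The 33 genes held between 0.564 and 0.594% of all counts in SF1 and 0.601 and 0.621% in WT. Libraries of 1 group differed by more than counting noise. Flt3 was at 1594 to 1700 CPM (counts relative to library size, TMM-scaled) in SF1 and 1514 and 1511 CPM in WT, and Il7r, which encodes CD127, at 421 to 465 CPM in SF1 and 331 and 371 CPM in WT, so both sort markers were present. The list of 8 sort and progenitor genes summed to between 9384 and 9683 CPM in SF1 and to 8867 and 8729 CPM in WT, with 3 genes higher and 2 lower. Markers of other cells also differed. Of 18 neutrophil and monocyte markers, 16 were higher and none lower, with sums of 2477, 3113 and 6336 CPM in SF1 replicates 1, 2 and 3 and of 1145 and 1461 CPM in WT. Of 11 measured B-lineage markers, 8 were lower, with sums between 1067 and 1503 CPM in SF1 and of 1990 and 1770 CPM in WT. Of 9 measured erythroid markers, 7 were lower, with sums between 77.1 and 102 CPM in SF1 and of 212 and 185 CPM in WT, and Hba-a2 and Slc4a1 were at 0 in SF1. Of 9 measured macrophage markers, 5 were lower, with sums between 9.63 and 22.0 CPM in SF1 and of 32.9 and 41.6 CPM in WT, and Cd5l and Mertk were at 0 in SF1. Of 8 measured dendritic markers, 7 were higher, with sums between 1841 and 2331 CPM in SF1 and of 1064 and 1207 CPM in WT. Of 7 measured mature B and plasma cell markers, 3 were higher and none lower, with sums between 781 and 1007 CPM in SF1 and of 365 and 402 CPM in WT. Of 7 measured T, natural killer and innate lymphoid markers, 2 were higher, with sums between 246 and 264 CPM in SF1 and of 191 and 199 CPM in WT, and Cd3e was at 0 in SF1. Without WT replicate 1 the counts of neutrophil, B-lineage, erythroid, macrophage and dendritic markers called were 9, 5, 5, 1 and 4. They were 10, 6, 6, 1 and 7 without SF1 replicate 2, and 11, 5, 6, 5 and 7 without SF1 replicate 3. Without WT replicate 2, 1 macrophage marker was called. A marker near 0 in 1 group can pass the filter on low counts only through the other group, and then only 1 direction is open to it. With the stricter filter, which asks for a minimum level in both groups, 2 erythroid and 1 macrophage markers were lower. Neutrophil, B-lineage and dendritic markers called were then 13, 8 and 7. The part of these cells in the results on the 33 genes was not tested. In bulk RNA, fewer cells of a type and less RNA per cell cannot be told apart.

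SF1 progenitors had less RNA for the hexokinase Hk1, the lactate carrier Slc16a1 and the reticulum enzyme H6pd, each lower by 1.82- to 2.51-fold. Smaller differences were found for the glucose carrier Slc2a3, the phosphofructokinase Pfkl and the kinase Pdk1, which were lower, and for the cytosolic pentose phosphate enzymes G6pdx and Pgls, which were higher. In the quasi-likelihood test of edgeR, with Benjamini-Hochberg adjustment over all genes tested, 6 of the 33 genes were lower in SF1 and 2 were higher at an adjusted p below 0.05. That is 24.2% of the 33, against 16.5% of all genes tested (9.74% lower and 6.77% higher). In glycolysis 5 of 25 genes were lower and none higher, and in the pentose phosphate pathway 2 of 8 were higher and 1 lower. At an unadjusted edgeR p below 0.05, 1 of the 25 glycolysis genes was higher and 7 were lower. Among all 14423 genes tested, 2145 were higher and 2379 lower at that threshold. DESeq2 and limma voom also called none of the glycolysis genes higher and 5 lower. The median log2 fold change (SF1 over WT) was -0.09 over the glycolysis genes and -0.01 over the pentose phosphate genes, and 0.02 over all genes tested. The SF1 and WT ranges were apart for 17 of the 33 genes, 12 lower and 5 higher. Over all genes tested, 49.0% had ranges apart (24.2% lower and 24.8% higher).

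H6pd, Hk1 and Slc16a1 were lower under each of the 15 alternative settings tried, with every adjusted p below 0.05. The other 5 calls each depended on settings. Without WT replicate 1, the deepest library, the calls of Slc2a3, Pfkl, Pdk1, G6pdx and Pgls were all lost, and the number of genes called in the whole table was 986 in place of 2382. With SF1 replicates 1, 2 and 3 and WT replicates 1 and 2 omitted in turn, 3, 4, 4, 3 and 5 of the 33 genes were lower and 3, 0, 0, 0 and 1 were higher. Of the 2382 genes, 977 were higher and 1405 lower, and with upper-quartile scaling 1293 were higher and 1106 lower.

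**Figure D1:**
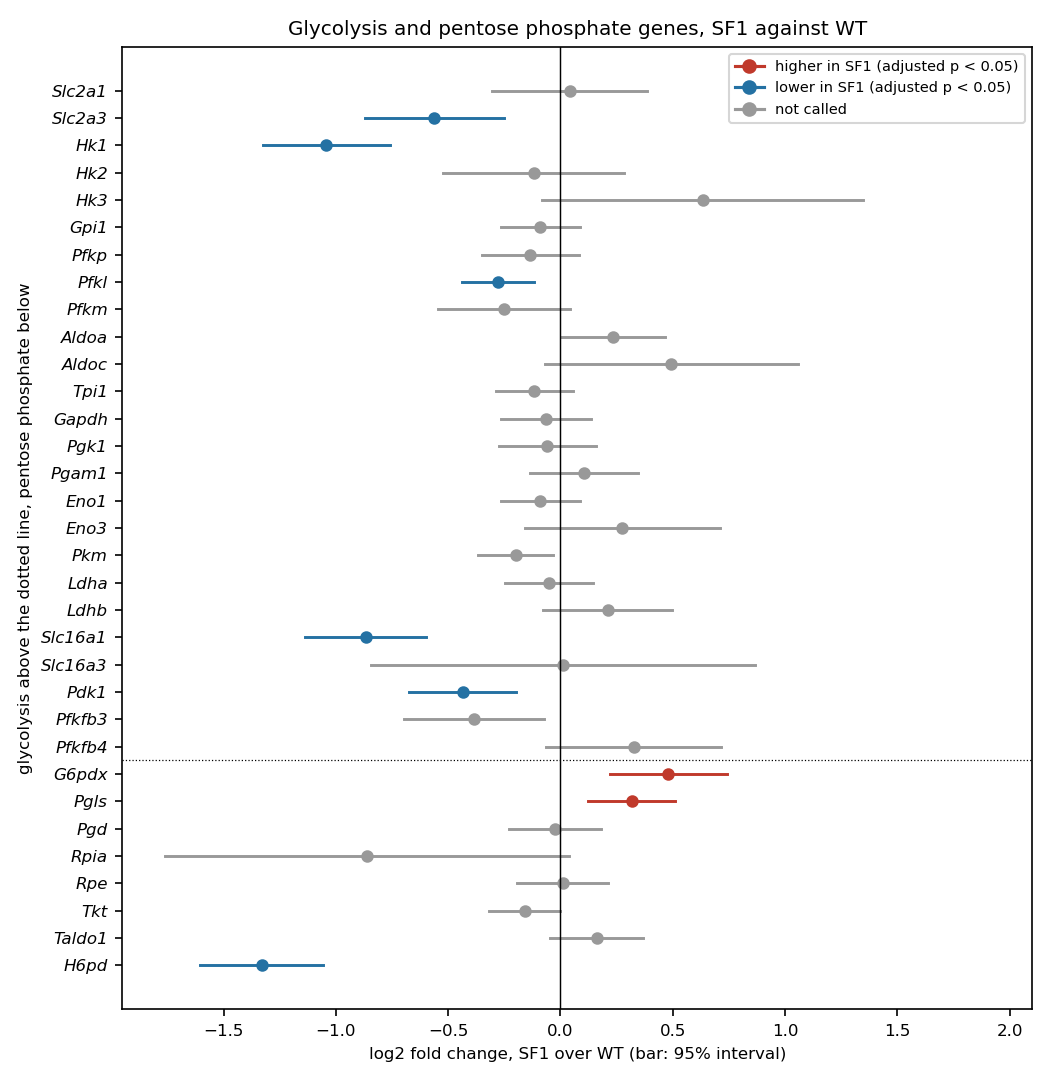
Log2 fold change of each of the 33 genes, SF1 over WT, with its 95% interval (horizontal axis), glycolysis above the dotted line and the pentose phosphate pathway below it. H6pd lies furthest to the left at -1.33, followed by Hk1 at -1.04 and Slc16a1 at -0.87, and G6pdx is the higher of the 2 red points at 0.48.

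RNA levels differed widely between these genes. Per exon length, Ldha, the muscle-type lactate dehydrogenase that makes lactate from pyruvate, was the most abundant, at 266 ± 24.3 RPKM (CPM per kilobase of exon) in SF1 and 275 ± 8.52 RPKM in WT (SD, n = 3 and 2). Tpi1, Taldo1, Pkm and Pgls followed, with means between 96.4 and 132 RPKM in SF1 and between 88.8 and 144 RPKM in WT. The lowest was Rpia, ribose-5-phosphate isomerase, at 0.397 ± 0.101 RPKM in SF1 and 0.748 ± 0.354 RPKM in WT. Over the 5 libraries together Rpia had 168 counts and Ldha 54331, so the precision differs widely between genes.

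**Figure D2:**
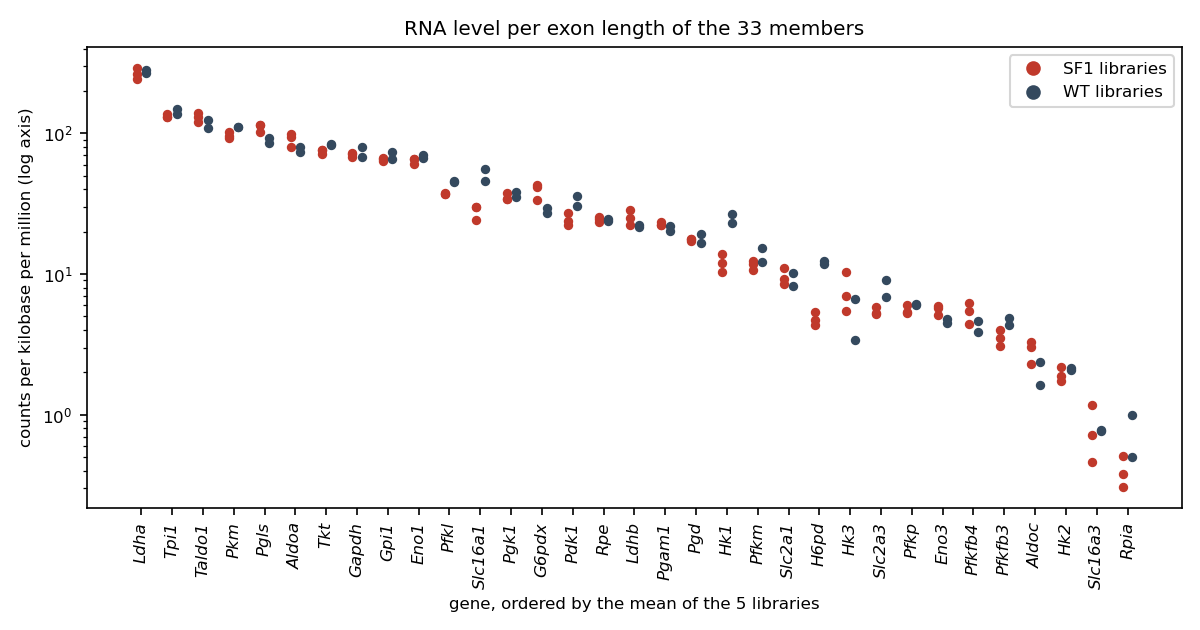
RNA level per exon length (RPKM, log axis) of the 33 genes in each library, SF1 points left of WT points, ordered by the mean of the 5 libraries. Ldha is highest at 266 RPKM in SF1 and 275 RPKM in WT, and the points of Hk1, Slc16a1 and H6pd in SF1 lie below those in WT.

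The stretches before the start sites are shown for 4 of the genes called, from each direction (Slc16a1, Hk1 and H6pd lower, G6pdx higher), and for Ldha, which did not pass. They are from RefSeq (GRCm38.p6), 250 bases before the start, 5′ to 3′ on the gene's strand. Capitals mark ACGTG or GCGTG on either strand, the core that the hypoxia-inducible factors (HIF) read. The E-box CACGTG, read by MYC and USF factors, holds this core on both strands and so counts for both. Of 2 listed starts of Hk1, the one with matches is shown. Of 2 listed starts of Ldha, the one with more matches is shown, and the other holds 1 core and no E-box. All stretches shown but that of Slc16a1 lie inside the wider gene span of the GENCODE annotation.
Slc16a1 (chr3:104638414-104638663, + strand): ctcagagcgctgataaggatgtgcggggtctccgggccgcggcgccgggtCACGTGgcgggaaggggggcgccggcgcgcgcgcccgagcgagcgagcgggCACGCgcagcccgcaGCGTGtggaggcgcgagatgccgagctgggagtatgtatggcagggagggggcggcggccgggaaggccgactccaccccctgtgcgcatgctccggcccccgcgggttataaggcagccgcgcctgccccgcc
Hk1 (chr10:62340422-62340671, - strand): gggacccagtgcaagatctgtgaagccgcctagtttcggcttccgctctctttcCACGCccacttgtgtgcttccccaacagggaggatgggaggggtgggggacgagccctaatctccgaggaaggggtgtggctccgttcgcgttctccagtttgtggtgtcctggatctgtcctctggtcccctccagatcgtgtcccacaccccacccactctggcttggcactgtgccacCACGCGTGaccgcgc
H6pd (chr4:150003237-150003486, - strand): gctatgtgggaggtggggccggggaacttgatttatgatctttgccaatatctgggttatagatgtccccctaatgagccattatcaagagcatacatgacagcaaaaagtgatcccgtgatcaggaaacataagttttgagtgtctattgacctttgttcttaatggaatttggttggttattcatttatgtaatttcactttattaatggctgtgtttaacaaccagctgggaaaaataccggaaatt
G6pdx (chrX:74428881-74429130, - strand): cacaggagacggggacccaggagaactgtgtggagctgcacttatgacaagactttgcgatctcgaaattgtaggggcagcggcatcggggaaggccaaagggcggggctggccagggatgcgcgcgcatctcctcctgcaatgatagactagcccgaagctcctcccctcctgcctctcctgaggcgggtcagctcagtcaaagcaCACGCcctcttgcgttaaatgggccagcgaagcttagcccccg
Ldha (chr7:46845554-46845803, + strand): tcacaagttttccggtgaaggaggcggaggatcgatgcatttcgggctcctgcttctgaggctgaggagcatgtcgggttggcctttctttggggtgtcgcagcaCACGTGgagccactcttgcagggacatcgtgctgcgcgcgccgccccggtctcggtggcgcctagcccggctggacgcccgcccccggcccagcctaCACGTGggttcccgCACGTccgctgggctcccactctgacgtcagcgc
Slc16a1 holds 1 E-box and 2 other cores, and the Hk1 start 3 cores, 2 of which overlap. G6pdx holds 1 core and H6pd none, while the Ldha start shown holds 2 E-boxes and 1 other core. For 32 of the 33 genes RefSeq starts were matched, 46 in all. Stretches of neighbouring starts overlap in Eno1, Aldoa and Pfkm, so a core there can be counted more than once. An ACGTG or GCGTG core was in 36 of these 46 (78.3%), in 38.6% of all 32851 promoters in the table and in 54.8% of the 12872 promoters of genes tested. CACGTG was in 4 of the 46 (8.7%), in 6.02% of all promoters and in 8.25% of those of genes tested. Genes with a core were among the lower ones (Hk1, Pdk1, Pfkl and Slc16a1), the higher ones (G6pdx and Pgls) and those that did not pass. A match is only a string of letters in this window.

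Glucose carriers differed by isoform. Slc2a3 (ENSMUSG00000003153, GRCm38 chromosome 6, 122727809 to 122801640) encodes GLUT3, a high-affinity glucose carrier of leukocytes and neurons. It was at 37.4, 38.0 and 42.2 CPM in SF1 replicates 1, 2 and 3, against 65.6 and 49.5 CPM in WT replicates 1 and 2. Every SF1 library was below both WT libraries, and the WT libraries were further apart than the SF1 libraries. The log2 fold change was -0.56 (SE 0.14, edgeR adjusted p = 0.0246), and it was -0.34 without WT replicate 1. The Slc2a3 call was also lost without SF1 replicate 1 or 2 (edgeR adjusted p = 0.0593 and 0.0841). Slc2a1, which encodes the widely expressed carrier GLUT1, was at 29.6, 38.97 and 32.08 CPM in SF1 and 35.8 and 29.0 CPM in WT. The groups overlapped (log2 fold change 0.04, 95% interval -0.30 to 0.39). Per exon length Slc2a1 made up 62.0, 67.9 and 61.1% of the RNA of both carriers in SF1, against 53.0 and 54.8% in WT. The sum of both was 14.98 ± 1.38 RPKM in SF1 and 17.2 ± 2.94 RPKM in WT, with overlapping ranges.

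Hexokinase traps glucose in the cell as glucose-6-phosphate. Hk1 (ENSMUSG00000037012, chromosome 10, 62268855 to 62379908), which encodes the housekeeping form that binds mitochondria, had the largest change of the 25 glycolysis genes. It was at 119, 102 and 88.7 CPM in SF1, against 197 and 229 CPM in WT. The lowest WT library was well above the highest SF1 library, and Hk1 was 2.06-fold lower (log2 fold change -1.04, SE 0.13, edgeR adjusted p = 0.00127). Over the alternatives the log2 fold change ran from -1.16 to -0.74. Hk2, the inducible form of growing and tumour cells, was at 10.3, 11.3 and 13.1 CPM in SF1 and 12.4 and 12.8 CPM in WT (95% interval of the log2 fold change -0.52 to 0.29). Hk3, the form of myeloid cells, was at 20.2, 25.6 and 38.1 CPM in SF1 and 12.6 and 24.5 CPM in WT, and the ranges overlapped (log2 fold change 0.63, edgeR adjusted p = 0.207). Without WT replicate 2 Hk3 passed as higher (log2 fold change 1.15, adjusted p = 0.0454), as it did when genes with low counts were kept (0.62, adjusted p = 0.0043). Without WT replicate 1 its log2 fold change was 0.19. Hk3 and the neutrophil and monocyte marker sums were both highest in SF1 replicate 3 and lowest in WT replicate 1. Hk3 was lower in SF1 replicate 1 than in WT replicate 2. The marker sum was 2477 CPM in SF1 replicate 1 and 1461 CPM in WT replicate 2. The part of those cells in the Hk3 level was not tested.

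The make-up of hexokinase RNA differed between the groups beyond the range of the libraries. Per exon length Hk1 made up 66.0, 57.4 and 45.4% of it in SF1 and 80.8 and 75.4% in WT. Hk3 made up 25.9, 33.5 and 45.1% in SF1 and 11.96 and 18.7% in WT. With the length of the longest transcript in place of all exons, Hk1 was at 77.4, 70.4 and 59.4% in SF1, against 88.2 and 84.4% in WT. Hk3 was then at 17.4, 23.5 and 33.9% in SF1, against 7.49 and 11.98% in WT, so the size of the shares depends on the length used while both groups stayed apart. The summed level of the 3 genes was 21.2, 20.8 and 22.9 RPKM in SF1, against 28.6 and 35.7 RPKM in WT. These shares and sums are given as values by library, without a test: a two-sided exact permutation test of 3 against 2 libraries, with the smaller tail doubled, cannot give a p below 0.2.

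**Figure D3:**
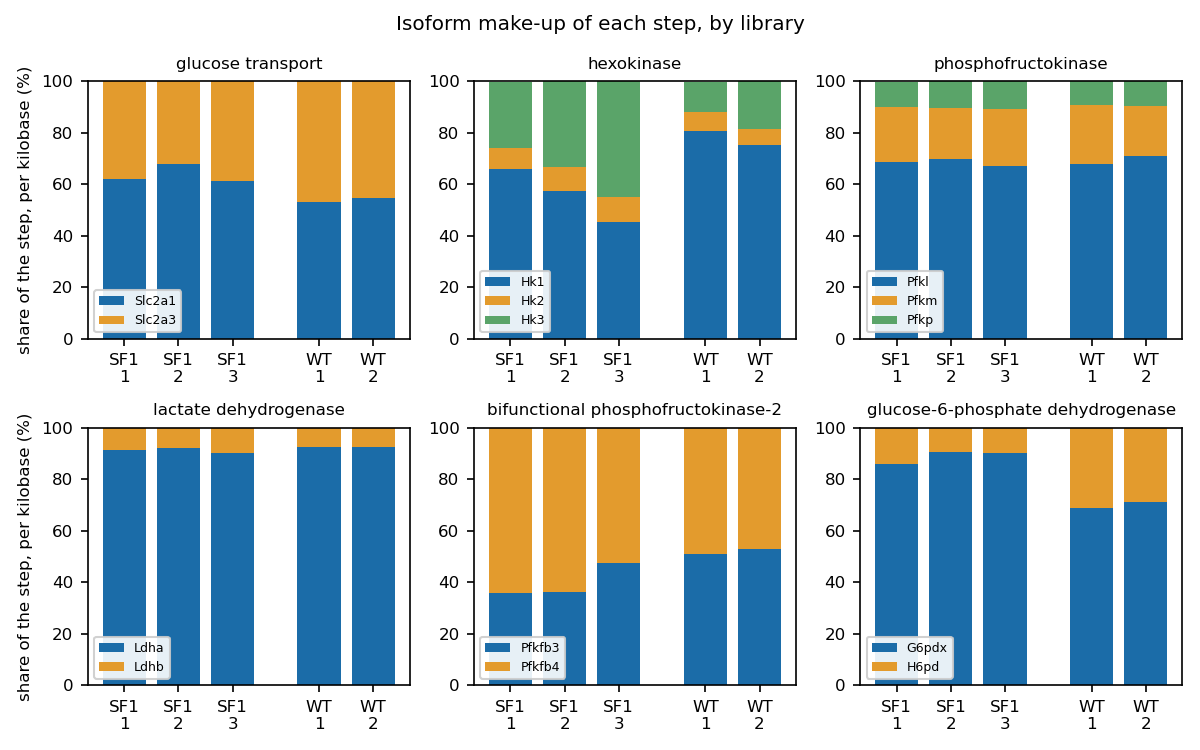
Share of each isoform in the RNA of 6 steps, per kilobase of exon (percent), as stacked bars, 1 per library, SF1 bars left of WT bars. Hk1 makes up 45.4% in SF1 replicate 3, against 80.8 and 75.4% in the WT libraries, and H6pd makes up 9.39 to 13.8% of the last pair in SF1, against 28.7 and 31.1% in WT.

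Gpi1, the phosphoglucose isomerase of the next step, was at 427, 413 and 432 CPM in SF1 and 426 and 477 CPM in WT (log2 fold change -0.09, edgeR adjusted p = 0.47). Pfkl (ENSMUSG00000020277, chromosome 10, 77986947 to 78010083), the liver-type phosphofructokinase, was at 246, 248 and 251 CPM in SF1, against 299 and 304 CPM in WT. The libraries within each group lay close together, and the groups were apart by 1.21-fold (log2 fold change -0.28, SE 0.07, edgeR adjusted p = 0.0308). This call was lost in 9 of the 15 alternatives, among them the omission of any 1 library, and the log2 fold change was -0.08 after correction for GC content and length (adjusted p = 0.506). The muscle type Pfkm and the platelet type Pfkp had log2 fold changes of -0.25 and -0.13 and did not pass. Pfkp shares 748 exon bases with Pitrm1 on the other strand, so its counts are uncertain.

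The Pfkl share of phosphofructokinase RNA overlapped between the groups. It was between 67.1 and 69.8% per exon length in SF1 and 67.7 and 71.2% in WT, while the summed level was 54.4 ± 1.48 RPKM in SF1 and 65.0 ± 1.48 RPKM in WT. Aldoa, the main aldolase, which splits the 6-carbon sugar, was at 233, 274 and 286 CPM in SF1 and 216 and 233 CPM in WT (log2 fold change 0.24, edgeR adjusted p = 0.148). Aldoa was called higher without SF1 replicate 1 (0.32, adjusted p = 0.0473). It made up between 96.0 and 97.7% of aldolase RNA in SF1 and 96.9 and 98.0% in WT, the rest being Aldoc, the brain form.

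From triose phosphate to pyruvate none of 7 genes passed. These are Tpi1, Gapdh, Pgk1, Pgam1, Eno1, Eno3 and Pkm, with a median log2 fold change of -0.06. Tpi1, which interconverts the triose phosphates, averaged 365 ± 11.9 CPM in SF1 and 395 ± 21.6 CPM in WT (log2 fold change -0.12, edgeR adjusted p = 0.329). Pgk1, the first ATP-making enzyme of the pathway, averaged 79.5 ± 4.83 CPM in SF1 and 82.8 ± 4.44 CPM in WT (-0.06, edgeR adjusted p = 0.726). Pgam1, the mutase after it, averaged 45.0 ± 1.35 CPM in SF1 and 41.9 ± 2.79 CPM in WT (0.11, edgeR adjusted p = 0.541). At an unadjusted p below 0.05 the same edgeR test had 1 lower gene, Pkm, and DESeq2 and limma voom called none. Gapdh, the glyceraldehyde-3-phosphate dehydrogenase often used as a loading control, was at 281, 302 and 296 CPM in SF1 and 282 and 330 CPM in WT. Its groups overlapped, and the 95% interval of the log2 fold change was -0.26 to 0.14. BLAST found 43 near-identical copies of Gapdh among the annotated transcripts, which together held 3.49% as many counts as Gapdh itself.

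Pkm, pyruvate kinase of non-liver tissues, makes ATP in the last step. It was at 510, 460 and 477 CPM in SF1, against 552 and 555 CPM in WT. The ranges were apart, with a log2 fold change of -0.20 (95% interval -0.37 to -0.03), but the adjusted p was 0.1 by edgeR. Counts per gene do not tell its M1 and M2 splice forms apart. Eno1, the main enolase, was at 355, 325 and 355 CPM in SF1 and 358 and 376 CPM in WT (log2 fold change -0.09, edgeR adjusted p = 0.471). It made up between 91.4 and 92.8% of enolase RNA in SF1 and 93.3 and 94.0% in WT. The intervals of all 7 genes lie between -0.37 and 0.71, and the upper end is that of Eno3, the muscle form, at 5.60 ± 0.424 RPKM in SF1 and 4.61 ± 0.227 RPKM in WT.

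Among the members at the lactate end, the carrier Slc16a1 differed, while Ldha and Ldhb did not pass. Ldha was at 805, 965 and 867 CPM in SF1 and 930 and 890 CPM in WT, with overlapping ranges (log2 fold change -0.05, 95% interval -0.24 to 0.14). Ldhb, the heart type that favours pyruvate, was at 35.3, 39.6 and 44.5 CPM in SF1 and 34.8 and 33.9 CPM in WT (log2 fold change 0.21, edgeR adjusted p = 0.291), higher in all SF1 libraries. Ldha made up between 90.2 and 92.0% of lactate dehydrogenase RNA in SF1 and 92.7 and 92.6% in WT. Slc16a1 (ENSMUSG00000032902, chromosome 3, 104638668 to 104658462) encodes MCT1, which carries lactate and pyruvate across the membrane with a proton. It was at 133, 132 and 107 CPM in SF1, against 247 and 204 CPM in WT. Every SF1 library was below both WT libraries, and Slc16a1 was 1.82-fold lower (log2 fold change -0.87, SE 0.12, edgeR adjusted p = 0.00221). Slc16a3, which encodes the lactate exporter MCT4 of strongly glycolytic cells, was low in both groups and averaged 4.18 ± 1.92 CPM in SF1 and 4.14 ± 0.05 CPM in WT (95% interval of the log2 fold change -0.84 to 0.86).

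Of the regulatory kinases, Pdk1 passed. It encodes pyruvate dehydrogenase kinase, which holds pyruvate back from the mitochondrial citric acid cycle (ENSMUSG00000006494, chromosome 2, 71873224 to 71903858). It was at 186, 210 and 175 CPM in SF1, against 278 and 235 CPM in WT. All SF1 libraries were lower, by a log2 fold change of -0.43 (SE 0.11, edgeR adjusted p = 0.0243), which was -0.31 without WT replicate 1 (adjusted p = 0.186). Pfkfb3 and Pfkfb4 encode bifunctional enzymes that set the level of fructose-2,6-bisphosphate, the activator of phosphofructokinase. Pfkfb3 was at 26.5, 23.4 and 30.3 CPM in SF1 and 36.7 and 32.9 CPM in WT (log2 fold change -0.38, edgeR adjusted p = 0.0915). Pfkfb4 was at 30.4, 26.5 and 21.5 CPM in SF1 and 22.6 and 18.8 CPM in WT (0.33, edgeR adjusted p = 0.232). Pfkfb3 thus made up 36.0, 36.2 and 47.6% of the pair per exon length in SF1, below its 51.1 and 53.0% in WT, while the sum of both overlapped between the groups. With the longest transcript in place of all exons the Pfkfb3 share was 42.8 ± 6.77% in SF1 and 55.1 ± 1.33% in WT.

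**Figure D4:**
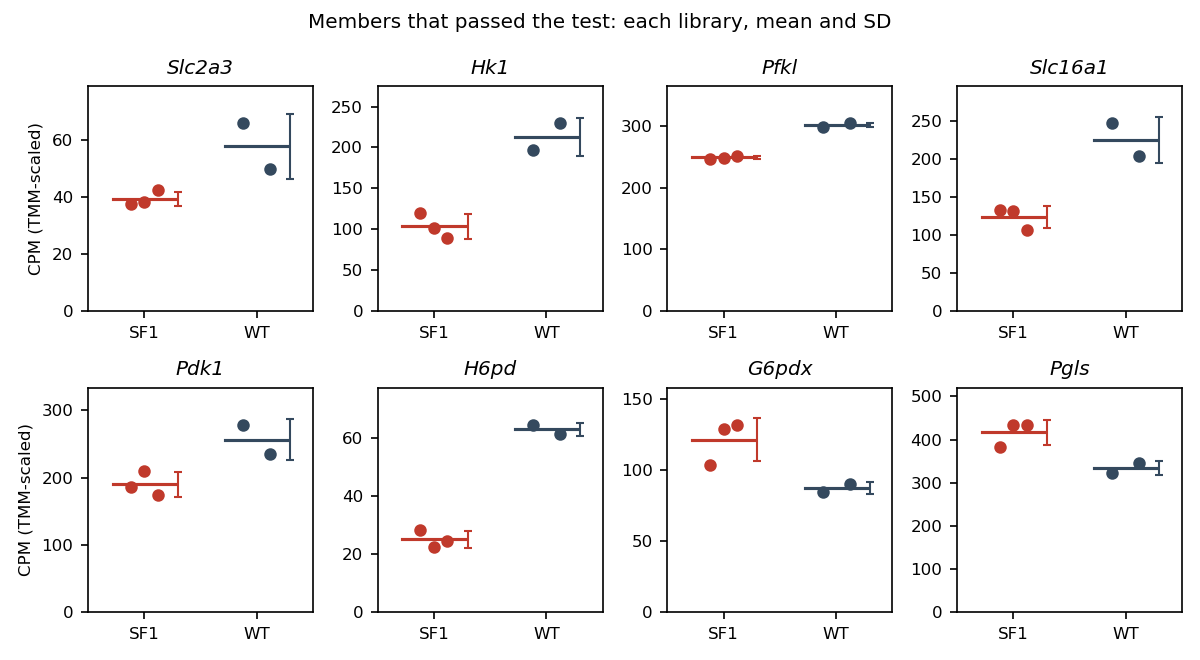
TMM-scaled CPM of the 8 genes that passed the test, 1 point per library, with the group mean (line) and SD (bar), SF1 left of WT, each axis from 0. Slc2a3, Hk1, Pfkl, Slc16a1, Pdk1 and H6pd are lower in all SF1 libraries (H6pd averaging 25.2 CPM in SF1, against 63.1 CPM in WT), and G6pdx and Pgls are higher in all of them.

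Of the 4 oxidative pentose phosphate genes, H6pd was lower, G6pdx and Pgls were higher and Pgd did not pass. H6pd (ENSMUSG00000028980, chromosome 4, 149979475 to 150009023) encodes hexose-6-phosphate dehydrogenase, which carries out the first steps of the branch inside the endoplasmic reticulum and supplies NADPH there. It was at 28.3, 22.7 and 24.5 CPM in SF1, against 64.7 and 61.6 CPM in WT. It had the largest change of the 33 genes by size and by p, 2.51-fold lower (log2 fold change -1.33, SE 0.12, edgeR adjusted p = 0.000433), and ran from -1.42 to -1.12 over the alternatives. Its neighbours among the 33 genes on chromosome 4, Pgd (149149991 to 149166771) and Eno1 (150236721 to 150248879), did not pass.

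G6pdx (ENSMUSG00000031400, chromosome X, 74409483 to 74429194) encodes the cytosolic glucose-6-phosphate dehydrogenase. It was at 104, 129 and 132 CPM in SF1, against 84.2 and 90.1 CPM in WT. Each SF1 library was higher than both WT libraries, with a log2 fold change of 0.48 (SE 0.12, edgeR adjusted p = 0.0235). The call was lost without SF1 replicate 2 or 3 or either WT library (adjusted p = 0.0822, 0.0812, 0.144 and 0.0511), at log2 fold changes between 0.42 and 0.52. G6pdx shares 418 exon bases with Ikbkg on the other strand, whose own log2 fold change was -0.12 (adjusted p = 0.437). Per exon length G6pdx had 6.23, 9.65 and 9.11 times the level of H6pd in SF1, against 2.22 and 2.49 times in WT. The 2 genes together were at 44.2 ± 4.48 RPKM in SF1 and 40.4 ± 0.93 RPKM in WT, with overlapping ranges.

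Pgls (ENSMUSG00000031807, chromosome 8, 71592176 to 71601092) encodes 6-phosphogluconolactonase, the next cytosolic enzyme. It was at 383, 434 and 434 CPM in SF1, against 323 and 347 CPM in WT. The ranges were apart by a small margin relative to the level, with a log2 fold change of 0.32 (SE 0.09, edgeR adjusted p = 0.0354). Without SF1 replicate 2 or 3 or either WT library the adjusted p was 0.112, 0.109, 0.202 and 0.0586. Pgls shares 776 exon bases on the same strand with Fam129c, so reads there cannot be assigned to 1 gene. Fam129c had 1795 counts over all libraries against 22739 for Pgls, and was at 0.30 (adjusted p = 0.144). Pgd, 6-phosphogluconate dehydrogenase, which closes the oxidative branch, was at 111, 114 and 115 CPM in SF1 and 123 and 106 CPM in WT (95% interval of the log2 fold change -0.23 to 0.18).

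None of the 4 non-oxidative genes passed, and 1 (Tkt) was lower at an unadjusted p below 0.05, while DESeq2 and limma voom called none. Tkt, transketolase, was at 526, 564 and 560 CPM in SF1 and 611 and 617 CPM in WT. The ranges were apart, at a log2 fold change of -0.16 (95% interval -0.32 to 0.00, edgeR adjusted p = 0.157). Taldo1, transaldolase, was at 284, 262 and 301 CPM in SF1 and 237 and 268 CPM in WT (0.16, edgeR adjusted p = 0.262). Rpe, ribulose-5-phosphate epimerase, averaged 75.9 ± 2.77 CPM in SF1 and 75.3 ± 1.51 CPM in WT, but it shares 558 exon bases with Kansl1l. Rpia was at 2.02, 2.71 and 1.65 CPM in SF1 and 2.67 and 5.35 CPM in WT, and at this depth its interval was wide (log2 fold change -0.86, 95% interval -1.76 to 0.04).

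Other genes of the same pathways were read from a list of 38, of which 23 were measured. Of these, 2 were higher, 1 lower and 20 did not pass. Ldhd, the D-lactate dehydrogenase of mitochondria, was at 14.0, 15.6 and 14.3 CPM in SF1, against 8.10 and 8.54 CPM in WT (log2 fold change 0.82, edgeR adjusted p = 0.0137, and 0.055 without SF1 replicate 2 and 0.0966 without WT replicate 1). Slc2a6, a carrier of the GLUT family, averaged 17.1 ± 2.13 CPM in SF1 and 10.9 ± 1.73 CPM in WT (edgeR adjusted p = 0.0458), and did not pass once any 1 library was omitted. Pklr, the pyruvate kinase of liver and red cells, was the lower gene, with 2 counts in SF1 and 39 in WT, a ratio of 20.9 between WT and SF1 (95% counting interval 5.4 to 178). Pklr was at 0, 0 and 0.18 CPM in SF1 and 1.51 and 1.02 CPM in WT. It passed the filter on low counts only through WT, so a higher call was not open to it. It was not tested by DESeq2, under the stricter filter or after thinning. Erythroid markers were lower in the same SF1 libraries, as given above, and their part in the Pklr counts was not tested. Ldhd and Slc2a6 did not pass and Pklr was too low to be tested when WT replicate 1 was omitted.

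The HIF system, which drives many of these genes under low oxygen, changed among its regulators. Of 8 measured regulators, 2 were higher, 3 lower and 3 did not pass. Egln1, Egln2 and Egln3 encode the prolyl hydroxylases that mark HIF-alpha for destruction, and they did not go the same way. Egln1 was at 51.7, 66.2 and 63.4 CPM in SF1, against 25.2 and 34.4 CPM in WT (log2 fold change 1.04, SE 0.16, edgeR adjusted p = 0.00418). Egln3 was at 35.2, 34.1 and 39.3 CPM in SF1, against 22.7 and 22.1 CPM in WT (0.69, edgeR adjusted p = 0.00663). Hif1a, the oxygen-regulated subunit, was at 110, 109 and 109 CPM in SF1, against 157 and 137 CPM in WT (log2 fold change -0.43, edgeR adjusted p = 0.0118). Egln2 was at 45.7, 42.4 and 55.6 CPM in SF1, against 72.8 and 69.9 CPM in WT (-0.58, edgeR adjusted p = 0.0168). All 4 had ranges apart, and the other lower regulator was Hif3a. Hif3a was at 0.43, 0.70 and 0.74 CPM in SF1 and 1.86 and 2.28 CPM in WT. It passed the filter on low counts only through WT, so a higher call was not open to it. It was not tested under the stricter filter and did not pass in DESeq2 (adjusted p = 0.11). Nor did Hif3a pass without SF1 replicate 1, 2 or 3 (edgeR adjusted p = 0.0628, 0.0682 and 0.0647). Without WT replicate 1 Hif1a did not pass (-0.32, adjusted p = 0.109), and none of the regulators was lower, while both Egln1 and Egln3 were higher, and without SF1 replicate 2 Hif1a was the only lower one.

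The list of 17 HIF targets outside glycolysis left out Egln1 and Egln3, which were counted above as higher regulators. Of the listed targets 15 were measured, and none passed the threshold in the edgeR test. At an unadjusted edgeR p below 0.05, 3 were higher and none lower (2145 and 2379 over all 14423 genes tested). DESeq2 and limma voom each called 1 of these targets higher. The median log2 fold change was 0.04. The list of NRF2, the oxidative-stress factor that drives G6pdx, Pgd, Tkt and Taldo1 in other cells, had 15 measured regulators and targets outside the pentose phosphate pathway. Of these 15, 1 was higher, 3 lower and 11 did not pass. The small Maf partner gene Mafk averaged 79.5 ± 9.55 CPM in SF1 and 146 ± 4.51 CPM in WT (log2 fold change -0.87, edgeR adjusted p = 0.00137). Txnrd1, a thioredoxin reductase gene, was 1.37-fold lower (edgeR adjusted p = 0.0138, and 0.0911 without WT replicate 1). Gsr, glutathione reductase, which consumes NADPH, averaged 91.1 ± 16.2 CPM in SF1 and 61.0 ± 6.04 CPM in WT (edgeR adjusted p = 0.0301). It did not pass when SF1 replicate 2 or 3 or either WT library was omitted. The other lower gene was Hmox1, heme oxygenase (log2 fold change -1.57, edgeR adjusted p = 0.0464), which did not pass when SF1 replicate 1 or 2 or either WT library was omitted. Hmox1 is also 1 of the 5 lower genes of the macrophage list, and the part of those cells in it was not tested. Without WT replicate 1 or without SF1 replicate 2 only 1 gene of this list was called, Mafk, and it was lower.

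**Figure D5:**
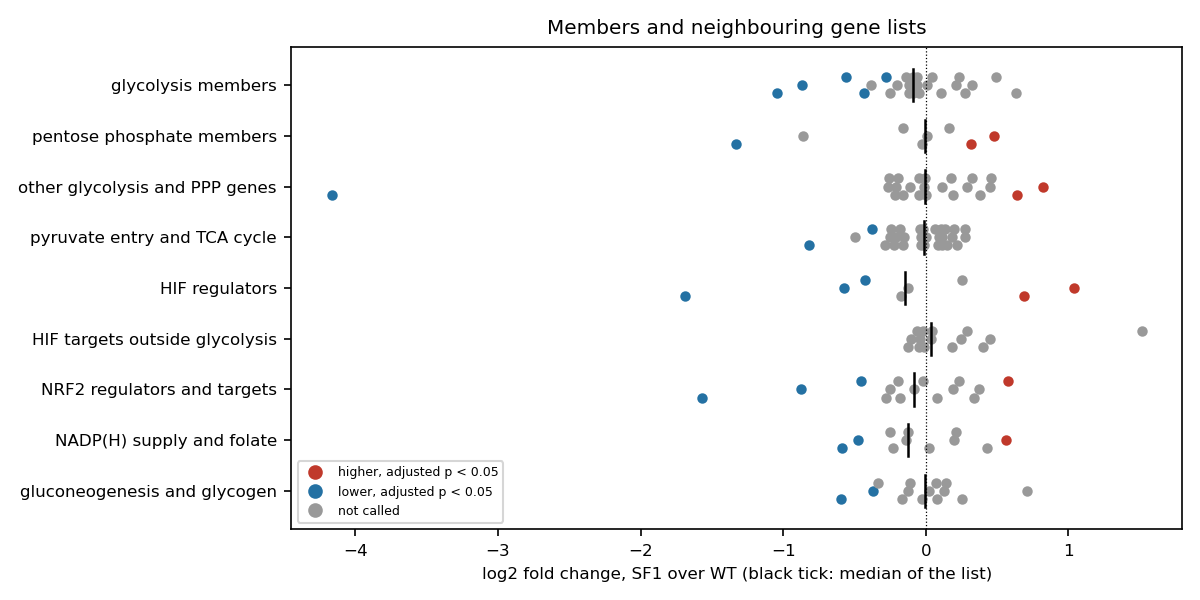
Log2 fold change, SF1 over WT, of every measured gene of the 2 pathways and of 7 neighbouring lists, 1 point per gene, with the list's median as a black tick. The 25 glycolysis genes have a median of -0.09 with 5 blue points to the left, and the HIF regulators have 2 genes higher and 3 lower.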

How the data were processed

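What the authors deposited is a single matrix of raw counts for the 5 libraries. HISAT2 2.2.1, featureCounts 2.0.1 and the GRCm38 build are named in the submitters' processing notes. Not given in the sources used here are the gene annotation behind the counts, its release, whether strand was used and how multi-mapping reads were treated. The cDNA chemistry was SMART-Seq, either v2 or v4, per the labels' protocols. No molecular identifiers or strand marks were used as far as the labels say, so PCR copies count as reads, overlapping genes cannot be separated, and intervals on counts cover counting error only.

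Symbols, coordinates and exon lengths came from GENCODE M21 (55227 of 55487 identifiers matched). Of 2 identifiers named Aldoa, the one with the main transcripts was used. Near-identical copies were searched by BLAST at 95% identity over 300 bases. The deposited counts were tested with edgeR 4.0.16 (R 4.3.3), using filterByExpr with a minimum count of 10, TMM scaling and the quasi-likelihood F test on all 5 libraries without covariates, adjusted over 14423 genes at 0.05. Each SE is the log2 fold change divided by the root of F. Levels are TMM-scaled CPM, or RPKM over all exon bases. Counts were also simulated for SF1 against WT (14151 genes), with 1 spread for every gene (biological coefficient of variation 0.122) and 50 genes changed at each size. There the test found 24% of genes with a log2 change of 0.5, 80% of those with 1, 96% with 2 and 98% with 3. Of its 155 calls, 6 were false. In the data the spread differs from gene to gene and 2382 genes were called, so these shares may not hold for the data.

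Alternatives were RLE and upper-quartile scaling, DESeq2 1.42.0, limma 3.58.1 voom with sample weights, no filter and a stricter filter, thinning to 8894288 counts, GC and length correction, the replicate number as a block, and each library left out. The members and lists were chosen with earlier results of these data known. Every one of the 33 genes is accounted for, with full values for those that passed, the main isoform of each step with several, and Gapdh, Slc2a1, Hk2, Pkm, Ldha and G6pdx. From each other list up to 3 called genes with the smallest p are named. Other members given by library, and Egln2, Hif3a and Hmox1, which fall outside this, were named with their values in view.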

Additional observations from a re-analysis of the deposited data

How the results depend on the processing

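Direction and call were the same for Hk1, Slc16a1 and H6pd under all 15 alternatives. Omitting 1 library at a time gave 986 to 2170 genes called in the whole table, 0 to 3 members higher, 3 to 5 lower, 2 to 5 of glycolysis and 1 to 3 of the pentose phosphate pathway, against 2382, 2, 6, 5 and 3 with all libraries. With a replicate block 1519 genes were called, 0 members higher, 3 of glycolysis and 1 of the pentose phosphate pathway. With the replicate block and GC and length correction 1195 genes were called, 1 member higher, 3 lower and 2 of glycolysis. Same-numbered libraries of the 2 groups correlated at 0.0356 and 0.0646 in their deviations, and the numbers were not taken as pairs. With 2 WT libraries the unlike-numbered pairs must take the same values with the opposite sign (-0.0356 and -0.0646). These correlations therefore cannot decide whether libraries were paired. Among 25 members that did not pass, 10 changed sign somewhere, by at most 0.41 in size. Omitting 1 library gave log2 fold changes of -0.10 to 0.21 for Slc2a1, -0.18 to 0.049 for Gapdh, -0.12 to 0.0107 for Ldha, -0.41 to 0.29 for Slc16a3, -0.13 to 0.087 for Pgd and -0.016 to 0.039 for Rpe. GC and length correction gave 0.0103 for Gpi1, 0.094 for Eno1, 0.045 for Pgd and -0.082 for Rpe, and with the block added 0.00139, 0.089, 0.031 and -0.12, with -0.011 for Pgam1, 0.00577 for Pkm and -0.22 for Slc16a3. The block alone gave -0.41 for Slc16a3 and -0.015 for Rpe. Upper-quartile scaling gave 0.00737 for Ldha and 0.033 for Pgd. Thinning gave -0.055 for Slc16a3, 0.00283 for Pgd and -0.017 for Rpe. DESeq2 gave -0.00206 for Slc16a3 and -0.00516 for Rpe, no filter -0.00719 and -0.00842, and limma voom -0.087 for Slc16a3. The cause was not tested. Isoform shares kept their order between the groups with the longest transcript as length, although 30 of 40 values were offset by more than 1 SD. Among the 33 genes Rpia (168 counts) and Slc16a3 (251) had the fewest counts and the largest SE.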

Other observations

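A list of 14 genes of NADP and NADPH supply and of folate metabolism outside the pentose phosphate pathway had 11 measured, of which 1 was higher, 2 lower and 8 did not pass. Mthfd1l, the mitochondrial formyl-tetrahydrofolate synthetase, was at 91.2, 79.7 and 75.4 CPM in SF1, against 126 and 120 CPM in WT (log2 fold change -0.59, edgeR adjusted p = 0.00552). Mthfd1, the cytosolic folate enzyme that makes NADPH, was at 192, 183 and 171 CPM in SF1, against 259 and 246 CPM in WT (-0.47, edgeR adjusted p = 0.00616). Both remained lower without any 1 library. Idh1, cytosolic isocitrate dehydrogenase, averaged 58.9 ± 10.5 CPM in SF1 and 40.1 ± 2.78 CPM in WT (0.56, edgeR adjusted p = 0.0372), and passed without SF1 replicate 1 but not without any other library (adjusted p between 0.0686 and 0.205).

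Of 30 genes of pyruvate entry and the citric acid cycle, 28 did not pass and the other 2 were lower, with a median log2 fold change of -0.01. At an unadjusted edgeR p below 0.05, 4 were higher and 8 lower (2145 and 2379 over all 14423 genes tested). DESeq2 and limma voom each called none of the 30 higher and 4 lower. The lower genes were Suclg2, a succinyl-CoA synthetase subunit (-0.38, edgeR adjusted p = 0.0355), and Pcx, pyruvate carboxylase (-0.82, edgeR adjusted p = 0.0383). None of the 30 passed when SF1 replicate 2 or 3 or WT replicate 1 was omitted. Of 14 measured genes of gluconeogenesis and glycogen, 2 were lower and 12 did not pass. Pck2, the mitochondrial PEP carboxykinase, was at 157, 125 and 138 CPM in SF1, against 217 and 206 CPM in WT (-0.59, edgeR adjusted p = 0.00591), and was lower without any 1 library. Pygm, a glycogen phosphorylase, was lower by 1.29-fold (edgeR adjusted p = 0.0372), and did not pass once any 1 library was omitted. Of 10 cell cycle genes none passed in edgeR, 1 was lower at an unadjusted p below 0.05, and DESeq2 and limma voom each called 1 lower. Their median log2 fold change was -0.15.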
